A study of Rattus norvegicus with 2 samples.

Results

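The subunits of the mitochondrial respiratory chain and of ATP synthase were compared between nondiabetic wild-type rats and HIP rats, a line transgenic for the human form of islet amyloid polypeptide (IAPP). Members were all gene probes of an Agilent whole-genome rat array whose gene name belongs to complex I (Ndufa, Ndufb, Ndufc, Ndufs and Ndufv), complex II (Sdha to Sdhd), complex III (Uqcr), complex IV (Cox4 to Cox8) or complex V (Atp5). They were chosen by name and not by any measured value. The rule found 71 of the 35561 gene names on the array, measured by 81 of 41012 gene probes, with 36 probes for complex I, 4 for complex II, 7 for complex III, 19 for complex IV and 15 for complex V. It took in 5 names that are no subunit genes: Ndufaf1 and Atp5s (now Dmac2l), which are assembly or accessory factors, Cox7a2l, which helps complexes III and IV to associate, Cox4nb (now Emc8) of the endoplasmic reticulum, and Cox6c1, which is now listed as a transcribed pseudogene of Cox6c.

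The labels call the groups wild type and human IAPP transgenic, with 2 extracts each, and give no age, strain or promoter of the transgene. As background, the transgene of the HIP line is driven by a rat insulin promoter and is expressed in beta cells. Extracts were hybridised in pairs, wild type 1 with HIP 1 on array 1 and wild type 2 with HIP 2 on array 2. The wild-type cDNA carried Cy3 and the HIP cDNA Cy5 on both arrays, which leaves genotype and dye in every ratio together: they cannot be told apart. There were n = 2 arrays throughout. The labels speak of cell samples without naming a tissue and do not say that the extracts came from separate animals, so the p-values may measure technical spread alone. In such bulk samples fewer cells of a type and less RNA per cell cannot be told apart.

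The respiratory chain passes electrons from NADH, through complex I, and from succinate, through complex II, to ubiquinone, then through complex III and cytochrome c to complex IV, which reduces oxygen. Complexes I, III and IV pump protons out of the matrix, and ATP synthase, also called complex V, uses their return to make ATP. In beta cells the ATP made from glucose closes potassium channels and so starts insulin release. The genes measured here are nuclear, and their proteins are imported and built together with subunits made from mitochondrial DNA.

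Many of these nuclear genes share promoter elements, and the promoters of Cox8a, Ndufab1 and Ndufa11 are shown because they span the range found. Cox8a is the member with the lowest mean ratio and its promoter holds the GABP letters, Ndufab1 is the member with the highest mean ratio and holds none of the letters of NRF-1, GABP and YY1, and Ndufa11 holds the most NRF-1 matches. Of 71 current symbols, 62 had a RefSeq promoter (GRCr8). The 250 bases before the start are printed 5′ to 3′ on the gene's strand, with matches to the NRF-1 core or to GABP in capitals. Cox8a lies at chr1:213833624-213833873 on the minus strand, Ndufab1 at chr1:186089337-186089586 on the minus strand and Ndufa11 at chr9:1637364-1637613 on the plus strand.
Cox8a: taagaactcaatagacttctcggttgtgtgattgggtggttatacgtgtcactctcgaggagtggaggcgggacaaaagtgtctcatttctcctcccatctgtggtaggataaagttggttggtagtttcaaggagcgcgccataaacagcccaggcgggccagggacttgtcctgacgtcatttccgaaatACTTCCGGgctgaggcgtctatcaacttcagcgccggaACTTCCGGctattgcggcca
Ndufab1: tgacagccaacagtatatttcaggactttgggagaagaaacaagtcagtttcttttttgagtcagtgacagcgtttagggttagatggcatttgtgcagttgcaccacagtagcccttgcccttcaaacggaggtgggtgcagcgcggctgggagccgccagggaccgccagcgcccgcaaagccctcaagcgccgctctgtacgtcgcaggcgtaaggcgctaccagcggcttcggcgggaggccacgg
Ndufa11: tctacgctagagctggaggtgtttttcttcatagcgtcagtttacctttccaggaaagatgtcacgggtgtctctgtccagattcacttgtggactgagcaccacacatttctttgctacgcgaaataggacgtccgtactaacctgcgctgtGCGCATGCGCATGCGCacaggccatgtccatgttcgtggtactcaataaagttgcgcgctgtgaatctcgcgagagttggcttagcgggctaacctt

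Both strands were searched for 7 motifs, and overlapping matches were counted. The NRF-1 core (GCATGCGC, in reverse GCGCATGC) was in 7 of 62 member promoters (11.3%), against 2.38% of 27457 promoters of the same length. The GABP letters (CCGGAAGT, in reverse ACTTCCGG) were in 6 (9.68%), against 3.29%. Those of YY1 (AAGATGGCG) were in 1 (1.61%), against 0.736%, and those of the estrogen-related receptors (CAAGGTCA) were in 2 (3.23%), against 1.30%. The Sp1 letters (GGGCGG) were in 38.7% against 32.4%, CCAAT in 33.9% against 34.3%, and TATAAA in 6.45% against 13.1%. In all, 14 of 62 member promoters held the letters of NRF-1, GABP or YY1. Cox8a held 2 matches to GABP, both as the reverse letters, and Ndufa11 held 4 overlapping matches to the NRF-1 core. These are descriptions of letters and not of sites in use.

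A probe was tested if, on each array, the scanner called it well above background in the dye of one extract or of both, and 70 of the 81 member probes were: 33 for complex I, 2 for complex II, 6 for complex III, 16 for complex IV and 13 for complex V. The share of member probes well above background was 87.7% in wild type 1 and 82.7% in wild type 2 (83.5% and 73.5% of all gene probes), and 91.4% in HIP 1 and 90.1% in HIP 2 (85.04% and 84.1%). All 8 probes for striated muscle markers were also well above background in all 4 extracts, so this call was not read as a sign of expression. Both insulin genes were well above background in every extract, with log2 ratios of HIP over wild type of -1.18 and -1.02 for Ins1 and -1.04 and -0.85 for Ins2 on arrays 1 and 2. Of the 7 tested islet marker probes, 3 were above 0 on both arrays (Iapp at 0.51 and 0.10, Ppy at 0.93 and 0.19, Sst at 0.13 and 0.086), 3 were below 0 on both (Ins1, Ins2 and Chga), and Gcg gave 2.84 and -1.35. The Iapp and Sst probes were dim, with processed signals from 66.2 to 211 and from 49.8 to 83.5. Neither was well above background in every extract. The processed signals of the 8 islet marker probes summed to 147299 and 238739 in wild type and 86471 and 111523 in HIP, sums made up mostly of Ins1, Ins2 and Chga. Over the 6 acinar marker probes with a value on both arrays, the sums were 13075, 13507 and 11996 in wild type 1, HIP 1 and wild type 2, and 63872 in HIP 2, where Ctrb1 (35115) and Prss1 (23259) made up most of it. Their part in the ratios of the members was not tested.

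No member probe passed the test of the log2 ratio against 0 (limma with Benjamini-Hochberg adjustment over 33664 probes). The smallest adjusted p was 0.942 and 0 probes of the whole array (0%) were called. At an unadjusted p of 0.05 there were 7 member probes, and 1102 probes (3.27%) of the array. A ratio at least 2-fold higher in HIP on both arrays was found for 6 member probes (8.57%), where 2.57% of all probes were, and a ratio at least 2-fold lower on both for 2 (2.86%), where 2.44% were. For 3 member probes (4.29%) the arrays were 2-fold apart in opposite directions, against 5.42% of all probes. On array 1 alone, 15 member probes were at least 2-fold higher and 15 lower, where 13.8% and 16.6% of all probes were. On array 2 alone, 9 were higher and 11 lower, where 15.1% and 12.9% were. These counts are descriptions without a test.

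The members had no common direction. The ratio was above 0 on both arrays for 20 of 70 member probes, where 26.9% of all probes were, and below 0 on both for 17, where 22.9% were, and it differed in sign for 33. Both HIP extracts lay above both wild-type extracts for 12 probes, with 15.8% as the share of all probes, and below both for 10, with 15.1%. The median of the members' mean log2 ratios was -0.048, against 0.023 for all probes. On array 1 the members' median was 0.16 and on array 2 it was -0.052. Single ratios spread widely, with an SD over the member probes of 1.49 on array 1 and 1.82 on array 2, against 1.35 and 1.39 for all probes. Across the 70 member probes, which share 2 arrays and are not independent, array 1 and array 2 correlated with r = 0.24 (Pearson) and rho = 0.16 (Spearman), and r was -0.0084 across all probes.

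**Figure D1:**
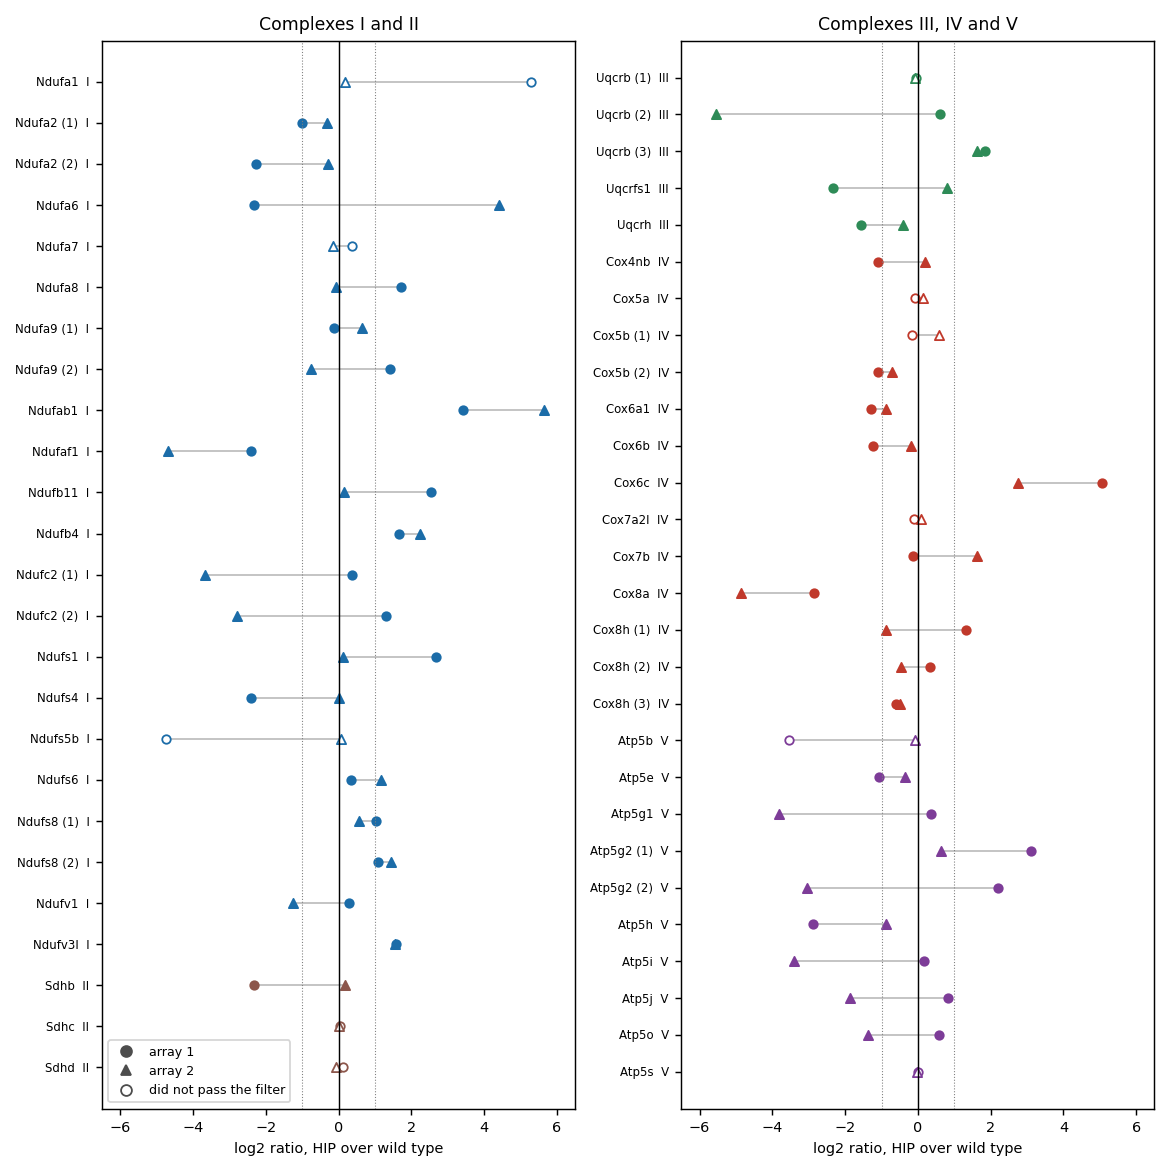
Log2 ratio of HIP over wild type for the member probes that were 2-fold apart on at least 1 array, belong to a gene with several probes or did not pass the filter, grouped by complex (Roman numerals), with circles for array 1, triangles for array 2 and a grey line between them. Open symbols are the 11 probes that did not pass the filter, dotted lines mark 2-fold, and numbers in brackets tell apart probes of 1 gene. Complex I spreads to both sides, and 5 of the complex V probes lie at or below -1 on array 2, as do 12.9% of all probes.

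Extracts of one genotype were often as far apart as extracts of different genotypes. The HIP extracts were at least 2-fold apart for 25 of the 70 member probes (35.7%) and the wild-type extracts for 29 (41.4%). Within arrays, HIP 1 and wild type 1 were 2-fold apart for 30 (42.9%) and HIP 2 and wild type 2 for 20 (28.6%). Across arrays, HIP 1 and wild type 2 were 2-fold apart for 26 (37.1%) and HIP 2 and wild type 1 for 38 (54.3%), the highest count of the 6 pairs. Of all probes, 28.0% to 30.5% were 2-fold apart in each of these pairs. The members have 1 spot each. For the 230 probes of the array with 4 or more spots, the median SD of the log2 ratio was 0.0806 between spots of an array and 0.591 between the arrays, so spot noise was the smaller part of the spread there.

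**Figure D2:**
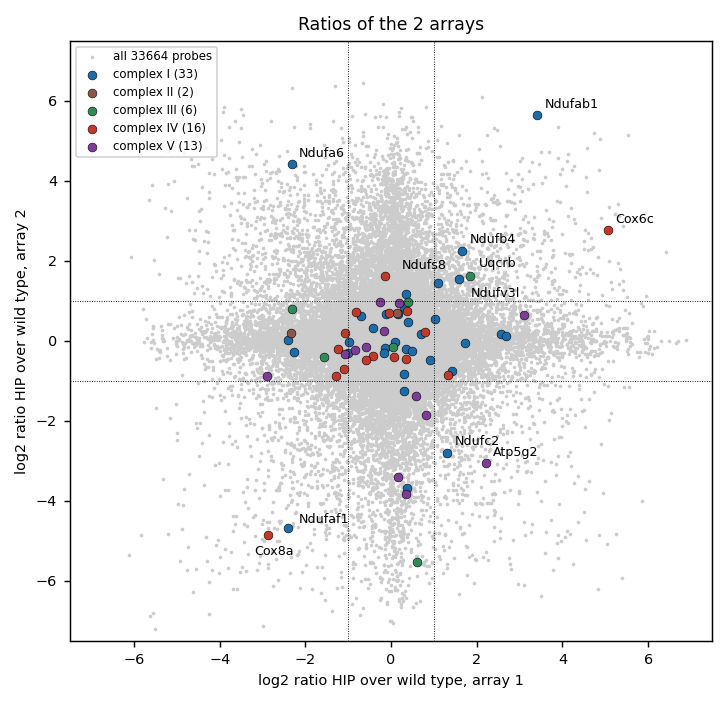
Log2 ratio of HIP over wild type on array 1 (x axis) and array 2 (y axis), with all 33664 tested probes in grey and the 70 member probes coloured by complex. Dotted lines mark 2-fold on each array, and the 11 named probes lie beyond them on both: 6 at the upper right, 2 at the lower left and 3 in the opposite corners.

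In complex I, which oxidises NADH, 4 of 33 tested probes were at least 2-fold higher in HIP on both arrays. A further 1 was lower on both and 2 were opposite, where 2.57%, 2.44% and 5.42% of all probes were higher, lower and opposite. The median mean log2 ratio of complex I was 0.21. The highest ratio of any member belonged to Ndufab1, the acyl carrier protein of mitochondria, which is bound in complex I and also serves mitochondrial fatty acid synthesis. Its normalised intensity was 225 in wild type 1 and 228 in wild type 2, and 2386 in HIP 1 and 11398 in HIP 2. The wild-type extracts were close to each other and both HIP extracts lay far above them. The log2 ratios were 3.41 and 5.64, with a mean of 4.53 ± 1.58 (SD, n = 2 arrays), or 23.1-fold (limma, adjusted p = 0.942).

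Ndufb4, an accessory subunit of the membrane arm, had intensities of 204 in wild type 1 and 1120 in wild type 2, and of 646 in HIP 1 and 5337 in HIP 2. Each HIP extract was above its own partner, but HIP 1 was below wild type 2, so the groups overlapped. The log2 ratios were 1.67 and 2.25, with a mean of 1.96 ± 0.41. Ndufv3, an accessory subunit at the NADH-oxidising tip that the array calls Ndufv3l, had intensities of 3698 and 1280 in wild type 1 and 2, and 11023 and 3733 in HIP 1 and 2. The ratios on the arrays were nearly equal, at 1.58 and 1.54, with a mean of 1.56 ± 0.022. HIP 2 was above wild type 1 by a small margin, so the groups did not overlap. Ndufs8, a core subunit that carries iron-sulfur clusters, had a probe at 744 and 507 in wild type and 1590 and 1370 in HIP, with ratios of 1.09 and 1.43 and groups that did not overlap. The spans of its probes on the genome start 26 bases apart, and the other probe gave 1.03 and 0.55.

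Ndufaf1, a factor needed to assemble complex I and not a subunit of it, was lower in HIP. Its intensity was 465 in wild type 1 and 1343 in wild type 2, and 88.0 in HIP 1 and 52.1 in HIP 2. It was well above background in 3 extracts and not in HIP 2. The log2 ratios were -2.40 and -4.69 (limma, adjusted p = 0.942). As HIP 2 was not well above background, the second ratio is not an exact value, and no mean is given.

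In other complex I probes the arrays went opposite ways. Ndufa6, an accessory subunit, stood at 557 and 112 in wild type 1 and HIP 1, and at 236 and 5030 in wild type 2 and HIP 2, which gave ratios of -2.32 and 4.41. HIP 2 stood apart from the other 3 extracts. For Ndufc2, a subunit of the membrane arm, one probe gave 1.31 and -2.80 and the other 0.37 and -3.68. Both of its probes were highest in wild type 2, at 2824 and 2323, where the other extracts lay between 88.7 and 406. With the scanner's processed ratios the first one's mean relative to all probes turned from -0.77 to 0.021. Ndufb3, one of the 3 complex I probes with the strongest signal, had ratios of 0.69 and 0.16 and no overlap between the groups, at 4455 and 5503 in wild type and 7202 and 6157 in HIP.

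The 19 remaining tested probes of complex I lay between -2.41 and 2.67 on array 1 and between -1.26 and 1.16 on array 2. Large ratios on 1 array alone, picked here after their values were seen, were 2.67 on array 1 for Ndufs1, the largest core subunit, with 0.13 on array 2, and 2.55 for Ndufb11, with 0.15. Ndufs4, an accessory subunit, gave -2.41 and 0.0086. On array 2 this probe was dim, at 74.6 in wild type 2 and 75.0 in HIP 2. It was not well above background in wild type 2, so the second ratio is not an exact value.

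**Figure D3:**
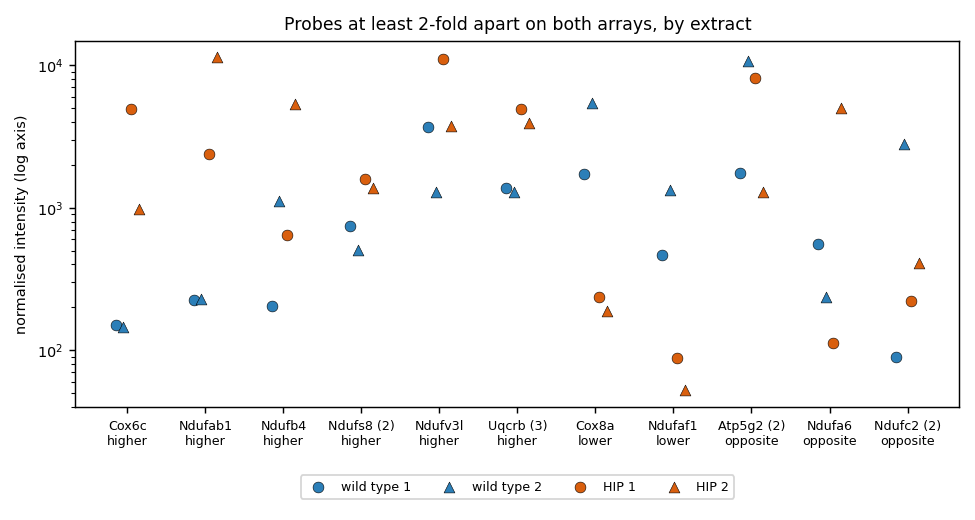
Normalised intensity, on a log axis, of the 11 member probes at least 2-fold apart on both arrays, in wild type (blue) and HIP (orange), with circles for the extracts of array 1 and triangles for those of array 2. For Cox6c, Ndufab1, Ndufs8, Ndufv3l and Uqcrb both HIP extracts lie above both wild-type extracts, for Cox8a and Ndufaf1 both lie below, and for Ndufb4 and the 3 opposite probes the groups overlap.

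Complex II, succinate dehydrogenase, also a step of the tricarboxylic acid cycle, had 2 tested probes, and neither was 2-fold apart on both arrays. The iron-sulfur subunit Sdhb had intensities of 1361 in wild type 1 and 271 in HIP 1, and 135 in wild type 2 and 154 in HIP 2, which gave ratios of -2.33 and 0.19. Wild type 1 stood apart from the other extracts. The flavoprotein Sdha gave 0.14 and 0.70. The membrane anchor Sdhc was not well above background on array 1 in either dye, and its ratios were 0.055 and 0.021. The other anchor, Sdhd, also did not pass the filter.

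Complex III moves electrons from ubiquinol to cytochrome c. Of its 6 tested probes, 1 was at least 2-fold higher on both arrays, where 2.57% of all probes were. This was a probe for Uqcrb, the ubiquinone-binding subunit, at 1372 and 1282 in wild type 1 and 2 and at 4946 and 3937 in HIP 1 and 2. The groups did not overlap, and the ratios were 1.85 and 1.62, with a mean of 1.73 ± 0.16. A further probe for the same gene gave 0.62 and -5.55, since it was 9687 in wild type 2 and 207 in HIP 2. Its mean relative to all probes was -2.49. Under this probe the authors' deposited table gives 1.14 and 0.39, a mean relative to all probes of 0.73. These are not its own scanner ratios, and that table holds no value for the gene's other probes. How those values were made is not stated. The third Uqcrb probe did not pass the filter and gave -0.065 and -0.072. The probes of this gene name thus gave different readings of the same extracts. The core subunit Uqcrc1 was 3475 and 2670 in wild type and 4588 and 5189 in HIP, with ratios of 0.40 and 0.96 and no overlap. The 3 others lay between -2.32 and 0.051 on array 1 and between -0.42 and 0.79 on array 2, and the Rieske iron-sulfur protein Uqcrfs1 and the hinge protein Uqcrh were the 2 below -1 on array 1.

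In complex IV, cytochrome c oxidase, 1 of 16 tested probes was at least 2-fold higher on both arrays and 1 was lower on both. The shares of all probes were 2.57% and 2.44%. Cox6c, a small subunit of the complex, had intensities of 149 in wild type 1 and 144 in wild type 2, and 4966 in HIP 1 and 977 in HIP 2. The wild-type extracts were close to each other and both HIP extracts were far above them. Its log2 ratios were 5.06 and 2.76, with a mean of 3.91 ± 1.63, or 15.1-fold (limma, adjusted p = 0.942). Cox8a, the widely expressed isoform of the smallest subunit, went the other way. Its intensity was 1729 in wild type 1 and 5444 in wild type 2, and 237 in HIP 1 and 188 in HIP 2. Its log2 ratios were -2.87 and -4.86, with a mean of -3.86 ± 1.41, and the groups did not overlap. Cox6c1, the pseudogene of Cox6c, gave ratios of 0.80 and 0.23.

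Several subunits of complex IV exist as a widely expressed isoform and one that is found in particular tissues. Cox4i1, the general form of the largest nuclear subunit, was 2695 and 3078 in wild type and 2002 and 2362 in HIP, with ratios of -0.43 and -0.38. The groups did not overlap, but relative to the median of all probes its mean turned from -0.43 to 0.11 with median centring in place of loess. Cox4i2, the form known from lung, gave -0.044 and 0.70. Cox6a1 was 1279 and 603 in wild type and 526 and 328 in HIP, with ratios of -1.28 and -0.88 and no overlap. The form of heart and muscle, Cox6a2, gave 0.059 and -0.40, and its relative mean of -0.19 turned to 0.35 with median centring. Cox6b, the general form now named Cox6b1, gave -1.24 and -0.20 and the testis form Cox6b2 gave -0.82 and 0.73, with a relative mean that turned from -0.069 to 0.12. Cox8b, the muscle form of the subunit, which the array calls Cox8h, had 3 probes, at 1.33 and -0.87, 0.34 and -0.47, and -0.59 and -0.48. The first pair of these probes overlaps by 21 bases, and the relative mean of the second turned from -0.084 to 0.22. The processed signals of the 8 muscle marker probes summed to 23478 and 20941 in wild type and to 18849 and 24019 in HIP.

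Cox7a2, a small subunit of complex IV, was the member probe that was well above background in HIP on both arrays and in wild type on neither. Its ratios were 0.38 and 0.75, a mean fold of 1.48. The wild-type levels behind it were not well above background, and a ratio against such a level is open to dye bias, since dyes were not swapped. Cox5b, another nuclear subunit, had a tested probe with ratios of -1.11 and -0.70 and no overlap between the groups, and an untested one with -0.16 and 0.57. The remaining tested probes of complex IV were Cox4nb, at -1.09 and 0.20, and Cox7b, a small nuclear subunit, at -0.13 and 1.61.

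In complex V, 0 of 13 tested probes were at least 2-fold apart in 1 direction on both arrays and 1 was opposite. Among all probes, 2.57% were higher on both, 2.44% lower and 5.42% opposite. The median mean ratio of complex V was -0.42, from a median of 0.15 on array 1 and -0.35 on array 2. Atp5a1, the alpha subunit now named Atp5f1a, was 633 and 562 in wild type and 420 and 507 in HIP, with ratios of -0.59 and -0.15 and no overlap. It belongs to the F1 head, which makes ATP. The 4 tested F1 probes, for the alpha, gamma, delta and epsilon subunits, had ratios from -1.08 to 0.97 and a median mean ratio of -0.17. Atp5b, the catalytic beta subunit, did not pass the filter: it was 666 in wild type 1 and 57.6 in HIP 1, a ratio of -3.53, while on array 2 neither dye was called well above background.

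Of the membrane part Fo, the c subunit, which forms the rotating ring in the membrane, is encoded by genes that the array calls Atp5g1, Atp5g2 and Atp5g3. Atp5g1 was 4643 in wild type 1, 5943 in HIP 1 and 29993 in wild type 2, against 2119 in HIP 2, with ratios of 0.36 and -3.82. For Atp5g2 one probe gave 2.21 and -3.06 and the other gave 3.11 and 0.63. The first was high in HIP 1 (8142) and wild type 2 (10784), and the second was high in HIP 1 (19580), where the other extracts lay between 1995 and 3086. The first probe's mean relative to all probes turned from -0.44 to 0.13 with median centring. Of the 9 tested probes outside the F1 head, 5 were at or below -1 on array 2, and 2 were at or above 1 on array 1, where 12.9% and 13.8% of all probes were. Besides Atp5g1 and the first Atp5g2 probe, these 5 were Atp5i (0.15 and -3.41), Atp5j (0.81 and -1.87) and Atp5o (0.59 and -1.37), singled out after their values were seen. In all 5 wild type 2 was the highest extract. Atp5h, a stalk subunit, was lower on both arrays at -2.90 and -0.89, without reaching 2-fold on the second.

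**Figure D4:**
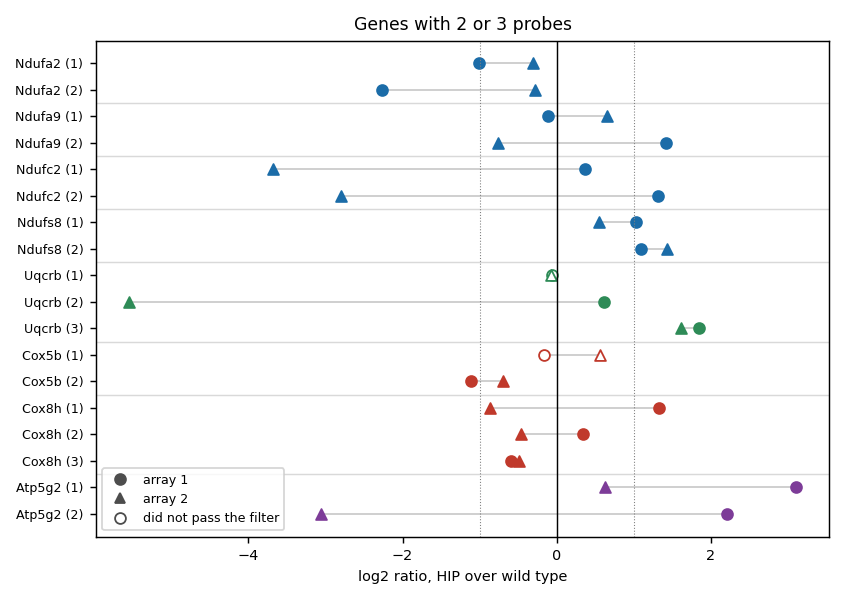
Log2 ratio of HIP over wild type of each probe of the 8 gene names with 2 or 3 probes, with circles for array 1, triangles for array 2 and open symbols for probes that did not pass the filter. The Ndufs8 probes lie on 1 side of 0, as do those for Ndufa2. The Uqcrb, Ndufa9, Atp5g2, Cox8h and Cox5b probes differ in direction on at least 1 array.

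Of the 71 gene names, 8 had several probes. The 2 probes for Ndufa2, an accessory subunit of complex I, overlap by 38 bases and gave -1.003 and -0.31, and -2.26 and -0.28, so even neighbouring probes differed by 1.26 on array 1. Those for Ndufa9 went opposite ways on both arrays, at -0.12 and 0.66 against 1.42 and -0.76. The first Ndufa9 probe was dim, with intensities from 84.8 to 151, and not well above background in wild type 2. Its mean relative to all probes turned from 0.25 to -0.096 with median centring. Named pseudogenes may add to these readings: 37 member probes, for 32 gene names, have at least 1 gene with a pseudogene suffix to their symbol in the RefSeq table, and their transcripts cannot be told apart from the parent gene without the probe sequences. Of the 6 probes 2-fold higher on both arrays, 5 were among the 29 tested probes of this kind (17.2%) and 1 among the 41 others (2.44%). That difference was not tested, and of the 2 lower probes both were among the 41.

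Of the 11 member probes that did not pass the filter, 3 had a large ratio on array 1, picked after their values were seen, and were not well above background on array 2. They were Atp5b (above), Ndufa1, an accessory subunit of complex I, at 5.29 with 0.17 on array 2, and Ndufs5b, now Ndufs5, at -4.74 with 0.076. The probes for Cox5a and Atp5s were not well above background in any extract. The others were the second probe for Cox5b, one for Uqcrb, and those for Ndufa7, Sdhc, Sdhd and Cox7a2l.

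The genes around the chain were counted in the same way, by lists of names that hold few probes each. Among all probes, 2.57% were 2-fold higher on both arrays, 2.44% lower and 5.42% opposite. Of 17 tested probes for the electron carriers, ubiquinone synthesis and Cyc1, which belongs to complex III, 0 were 2-fold higher on both arrays, 1 was lower and 2 were opposite. The lower one was a probe for Coq10b, a ubiquinone-binding protein, at -1.79 and -1.77, whose other probe gave -0.29 and 2.14. Cycs, which encodes cytochrome c, gave 2.42 and -4.29 with its brightest probe, -3.30 and 1.92 with another, which are the 2 opposite ones, and 1.15 and -0.45 with the third. The Cycs probe at -3.30 and 1.92 was well above background in only 2 extracts, and the other Coq10b probe in 3. Their ratios are therefore not all exact values. Etfb, a subunit of the electron transfer flavoprotein, gave 0.56 and -2.40. Cyc1, given because it is a subunit of complex III, was at 0.91 and 0.14. Of 28 tested probes for assembly factors, 1 was higher, 0 were lower and 2 were opposite, and the higher one was Atpaf2, an assembly factor of the F1 head, at 1.24 and 2.29. No probe of these lists, or of those that follow, passed the limma test.

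Of 22 tested probes for the transcription of these genes and the upkeep of mitochondrial DNA, 2 were higher on both arrays, 0 were lower and 1 was opposite. For this list and the next ones, the shares of all probes are again 2.57%, 2.44% and 5.42%. Nrf1, the factor behind the NRF-1 letters above, gave 1.69 and 2.36. Gabpb1, a subunit of GABP, gave 3.76 and 1.48 with one probe and -0.31 and 1.96 with the other. Gabpa, also a subunit of GABP and picked later, gave 0.099 and 0.16 with its tested probe. Sp1, the brightest gene of this list, gave 0.036 and -0.18. Tfam, which packs mitochondrial DNA, was the opposite one, at -2.82 and 4.07. The Tfam probe and both Gabpb1 probes were well above background in 3 of the 4 extracts, so their ratios are not all exact values. Of 23 tested probes for the tricarboxylic acid cycle, 2 were higher, 1 was lower and 1 was opposite. Idh3b and Idh3a, subunits of the same isocitrate dehydrogenase, went opposite ways: Idh3b gave 2.11 and 4.17 and Idh3a, the lower one, gave -1.93 and -1.66. Idh2, the NADP-linked form, gave 4.81 and 1.63 with one probe and 0.27 and -0.10 with the other. Of 25 tested probes for carriers and pores of the mitochondrial membranes, 3 were higher, 0 were lower and 2 were opposite. Vdac1, the main pore of the outer membrane, gave 1.54 and 3.69 with the higher probe. It gave 1.99 and -1.03 with another and -0.39 and 2.99 with the third. Nnt, which links the proton gradient to NADPH, gave 0.47 and 5.59 with one probe, -0.013 and 3.33 with another and -2.67 and 0.82 with the third. The first of these Nnt probes was not well above background in every extract. Ckmt1, a mitochondrial creatine kinase with a bright probe, gave 0.11 and -5.98. The median mean ratios of the lists, in the order given, were -0.30, -0.13, -0.032, -0.015 and 0.49, beside 0.023 for all probes.

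**Figure D5:**
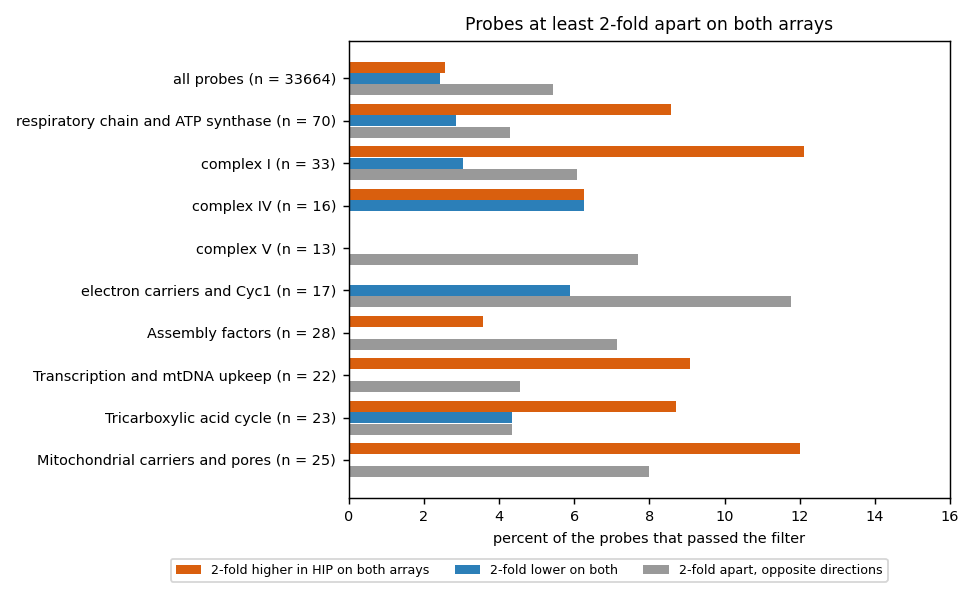
Percent of the tested probes at least 2-fold higher in HIP on both arrays (orange), 2-fold lower on both (blue) and 2-fold apart in opposite directions (grey), for all probes, the members, their larger complexes and the gene lists, with the number of tested probes in brackets. The members stand at 8.57% higher and 2.86% lower, against 2.57% and 2.44% of all probes, and most groups hold few probes, so 1 probe moves a bar by several percent.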

How the data were processed

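Amplified cDNA of 2 wild-type and 2 HIP extracts was compared on 2 two-colour arrays of 1 slide, and the arrays' number limits the precision. Per the labels' protocols, mRNA was isolated with magnetic beads and its cDNA amplified by a global PCR, which can change the proportions of transcripts. Per the file headers, the authors read spots with Agilent Feature Extraction 9.5.1.1. The deposited mean and median-background intensity of each spot, not normalized, were used. The deposited log10 ratios (processed Cy5 over Cy3, per the file headers) served as an alternative. The deposited table of the series holds 72 of the members, 64 of them equal to the scanner ratio within 0.0001 (log2). How the rest were combined is not stated.

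Intensities were corrected with normexp (offset 50) and loess in R 4.3.3 and limma 3.58.1, with control spots at weight 0. Outlier spots were left out and replicate spots averaged. Levels of extracts are loess values scaled between arrays on their average intensity (Aquantile), and levels of different probes cannot be compared. Of 33681 probes passing the filter, 33664 had both ratios, which were tested against 0 (limma's lmFit and eBayes; two-sided, adjusted p at 0.05, with 1 residual degree of freedom). The fit was checked on simulated ratios, but the pass mark of that check used a spread well below the observed one. It does not show how large a change these arrays could detect.

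Names were updated through a RefSeq table (GRCr8) for 23 member probes. The genome build of the probes is not stated in the labels or headers, so probe positions are not printed. The member probes named with values were those 2-fold apart on both arrays, the 3 brightest of each complex and genes with several probes. Isoform pairs and probes measured in 1 genotype were named as well. Of each list, only some of the 2-fold probes, largest ratios and brightest genes are named, and others as large or bright are not. Further ones are said to be picked later, and values of a complex I member are not reported here. Members, lists and rules were chosen with earlier results of these data known.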

Additional observations from a re-analysis of the deposited data

How the results depend on the processing

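No member passed the limma test with median centring, without dye normalization, with the scanner's processed ratios, with the deposited table, without the filter, with the filter in both dyes of both arrays, with a trended or a robust prior, with 1 value per gene name (its brightest probe or the mean), with the 4 channels as separate samples, or without the 5 names that are no subunit genes. At an unadjusted 0.05, 954 to 5595 probes of the array passed in those fits, and 5 to 18 member probes. With 1 array left out no test was possible, as no residual degree of freedom remains. The members 2-fold higher on both arrays were 6 after loess, 11 with median centring and 23 without normalization. Those 2-fold lower were 2 after loess, 4 with the processed ratios, 4 in the deposited table and 1 with the filter in both dyes. Their shares were 2.86%, 5.71%, 6.35% and 1.56%, where 2.44%, 4.68%, 4.38% and 2.71% of all probes were. There was 1 without the 5 names. The last 2 counts are lower because Ndufaf1 leaves. The opposite ones were 3, and 7 with median centring, 9 without normalization, 7 with the processed ratios and 6 in the deposited table. These are counts of 70 members, and of 63 in the deposited table. Of all probes, 5.42% were opposite after loess, and 5.46%, 5.06%, 10.8% and 10.2% in the other settings, in the same order. On single arrays, 9 to 15 members were 2-fold higher and 11 to 15 lower, because 1 array sets a looser condition than both: 9 and 11 without array 1, and 15 and 15 without array 2. The median of -0.048 became 0.26 with median centring and 1.05 without normalization, where the median of all probes was 0.27 and 1.06, and ranged from -0.052 to 0.16 on single arrays. Of members 2-fold apart in 1 direction, 75.0% were higher after loess, 84.6% with median centring, 92.0% without normalization, 63.6% with the processed ratios and 6 of 10 in the deposited table, where 51.3%, 84.4%, 98.1%, 55.0% and 55.4% of all such probes were. Relative to the median of all probes, 9 of 70 member means turned sign with median centring, 3 with the processed ratios and 3 of 63 in the deposited table. For the Uqcrb probe among the last 3, the deposited value is not its own scanner ratio. Apart from the filter and the 5 names, the cause of these shifts was not tested. Each ratio pairs the extracts of an array, and the fit of the 4 channels drops this pairing.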
